A study of Mus musculus with 4 samples.

Results

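A group of 10 genes that hold back or watch over the cell cycle was followed on 4 single-colour Agilent mouse arrays. They are the CIP/KIP inhibitors of cyclin-dependent kinases (Cdkn1a, Cdkn1b, Cdkn1c), the INK4 inhibitors (Cdkn2a, Cdkn2b, Cdkn2c, Cdkn2d), the CDK phosphatase Cdkn3, and the tumour suppressors Trp53 and Rb1. Members were taken by gene name from the non-control probes of the scanner files. All 10 names were found, with 15 of the 55681 non-control probes, and all 10 entered the comparison of 24596 genes.

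The arrays compared islet-like clusters with islets of Langerhans, 2 arrays each, from male Swiss albino mice aged 10 to 12 weeks. Both groups started from collagenase digests of pancreata pooled from 2 to 4 mice. The clusters were grown from the attached fibroblast-like cells of such digests, which were passaged and then held for 10 days in serum-free medium with albumin and insulin-transferrin-selenium on low-adherence dishes, with 0.3 mM taurine from day 3 and with 100 mM nicotinamide, 3 mM taurine and GLP-1 from day 7. The islets were flushed from the culture flasks after 48 h per their titles and the protocol, although their descriptions call them freshly isolated. No array of the passaged cells before induction was analysed here, and the number of passages is not given in the sources used here, so culture, passage and induction cannot be told apart. Whether the 2 arrays of a group stand for different pools of mice is not stated, and each p-value therefore reflects array-to-array spread that may be technical.

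Cyclins switch on their kinases, which then phosphorylate the RB protein, and RB in turn releases the E2F factors that start the genes of DNA replication. INK4 proteins block the kinases that pair with the D cyclins, whereas CIP/KIP proteins bind cyclin-CDK complexes more broadly. The Cdkn2a gene gives rise to p16Ink4a and, from another first exon and another reading frame, to p19Arf, which protects p53 by holding back its ubiquitin ligase Mdm2. In beta cells p16Ink4a is known to build up with age, and p27Kip1 and p18Ink4c are known to limit proliferation.

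Sequences bear on the results of Cdkn2a and Cdkn1a, because both genes have several transcripts, which their probes may or may not tell apart. Both Cdkn2a probes are listed in the files with the RefSeq transcripts of p16Ink4a and of p19Arf, so these arrays do not separate the 2 products. Their first 30 bases lie on the minus strand of the mm9 assembly at chr4:88920435-88920464 and chr4:88920573-88920602, and the probes start 138 bases apart. Of the 3 Cdkn1a probes, A_51_P363947 is listed with both RefSeq transcript variants, A_55_P1986282 with variant 2 alone, and A_55_P1976204 with an Ensembl transcript and no RefSeq one. The stretches shown of the last pair lie on the plus strand at chr17:29227986-29228015 and chr17:29235329-29235358, and the capitals in the second mark an ATG and, before it, letters of the kind found where introns end.
Cdkn2a A_55_P2008437: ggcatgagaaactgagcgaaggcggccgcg
Cdkn2a A_55_P2008438: cttctagcgatgctagcgtgtctagcatgt
Cdkn1a A_55_P1986282: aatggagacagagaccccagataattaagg
Cdkn1a A_55_P1976204: tcttgtgTTTCAGccacaggcaccATGtcc

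RefSeq promoter sequences (GRCm38.p6) were at hand for 11 transcription starts of 8 members, all but Cdkn1c and Rb1. Cdkn1a, Cdkn2a and Cdkn2c have 2 starts each. Those of Cdkn1a and Cdkn2a are shown, and the bases given are the 250 upstream of each start. For Cdkn1a these are chr17:29090729-29090978 and chr17:29093519-29093768 on the plus strand. For Cdkn2a they are chr4:89294620-89294869, before the first exon of p19Arf, and chr4:89282193-89282442, before the first exon of p16Ink4a, both on the minus strand. Capitals mark a p53 response element in the first, GC boxes (GGGCGG) in the second, and in the third an E2F motif (TTTCCCGC) followed by 2 GC boxes, none of which overlap, while the fourth holds none of these motifs.
Cdkn1a upstream start: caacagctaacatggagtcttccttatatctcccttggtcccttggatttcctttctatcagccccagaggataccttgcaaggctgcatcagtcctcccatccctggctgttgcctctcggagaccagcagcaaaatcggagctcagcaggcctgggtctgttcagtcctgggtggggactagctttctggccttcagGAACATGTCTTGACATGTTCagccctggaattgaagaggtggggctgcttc
Cdkn1a downstream start: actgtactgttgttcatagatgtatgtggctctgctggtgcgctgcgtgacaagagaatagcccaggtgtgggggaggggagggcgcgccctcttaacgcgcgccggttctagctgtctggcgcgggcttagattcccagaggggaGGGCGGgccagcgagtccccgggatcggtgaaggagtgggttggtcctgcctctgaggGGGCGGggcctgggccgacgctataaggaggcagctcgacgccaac
Cdkn2a start of p19Arf: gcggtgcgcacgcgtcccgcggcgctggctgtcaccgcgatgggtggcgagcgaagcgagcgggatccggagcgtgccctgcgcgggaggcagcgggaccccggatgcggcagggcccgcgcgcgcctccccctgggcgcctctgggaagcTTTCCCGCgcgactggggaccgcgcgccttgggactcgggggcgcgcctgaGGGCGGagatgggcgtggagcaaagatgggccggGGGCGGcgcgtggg
Cdkn2a start of p16Ink4a: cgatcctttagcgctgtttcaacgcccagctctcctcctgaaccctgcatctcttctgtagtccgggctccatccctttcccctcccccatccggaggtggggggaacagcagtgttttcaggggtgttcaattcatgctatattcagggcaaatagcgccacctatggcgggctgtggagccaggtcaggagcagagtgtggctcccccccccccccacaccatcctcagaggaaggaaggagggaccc

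The p53 element begins 51 bases before the upstream start of Cdkn1a. Searched on both strands, as adjacent decamers with both cores intact and at most 1 of 20 positions off, such an element stood in 18 (0.0548%) of 32851 mouse promoter windows of 300 bases. This search was added after the sequence had been read. E2F motifs (TTTGGCGC, TTTCCCGC, TTTCGCGC or TTTGCCGC, either strand) were in 2.26% of the same windows and in 1 of the 11 members' windows, that of p19Arf. GC boxes on either strand were in 35.7% of all windows and in 8 of the 11, and TATAAA on either strand in 13.6% and in 1 of the 11, that of Trp53. The variant 2 probe of Cdkn1a lies 9391 bases before A_51_P363947 on mm9, farther than the 6953 bases from the downstream start to the end of the gene on GRCm38.p6, which places it before the downstream start.

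Expression is given as log2 of the processed signal relative to the 75th percentile of each array. Between 59.7% and 63.6% of spots per array were well above background and none was saturated. Values of all genes correlated at r = 0.985 between the clusters, at 0.989 between the islets and at 0.796 to 0.810 across groups. Although their titles call the clusters insulin producing, all 5 beta cell markers were lower in them and 2 of the 5 were well above background on both cluster arrays, with mean log2 levels over the list of -4.57 and -5.07 in the clusters and 2.55 and 0.83 in the islets. All 7 stromal markers were higher in the clusters (6.98 and 6.78 in the clusters, 1.74 and 1.73 in the islets). The islet arrays also carried RNA of the 6 acinar markers (7.94 and 8.51, with -3.38 and -3.63 in the clusters), the 5 duct and epithelial markers (7.44 and 7.42, with -6.19 and -6.36 in the clusters, where none of the 5 was well above background on both arrays) and the 4 endothelial markers (0.25 and 0.19, with -3.32 and -3.60 in the clusters). Of the 5 macrophage and leukocyte markers 3 were lower in the clusters. These marker differences lie between the same groups as every comparison below, and their part in the results was not tested. In such bulk samples, a change in the number of cells of a type and a change in RNA per cell cannot be told apart.

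In the islet-like clusters 7 members rose at an adjusted p under 0.05 (limma with Benjamini-Hochberg adjustment over all genes), and 0 fell, also at an unadjusted p under 0.05. They are all 4 INK4 genes, Cdkn1b, Cdkn1c and Rb1, and 6 of them rose at least 2-fold. Cdkn1a, Cdkn3 and Trp53 did not pass. Over all genes 55.0% were called, 26.6% higher and 28.3% lower in the clusters, and 20.3% were higher by at least 2-fold. The median log2 fold change was 1.09 over the members and -0.10 over all genes. The values of the groups did not overlap in 9 of the 10 members, Trp53 being the exception, against 79.9% of all genes (37.2% with the clusters higher). Of the 15 probes 14 could be tested, of which 10 were higher and 1 lower, while 53.2% of all probes tested were called and 26.4% were higher. With a single islet array left in, the number of members called higher fell to 4 without islets 1, when the calls over all genes also fell from 13516 to 8275.

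**Figure D1:**
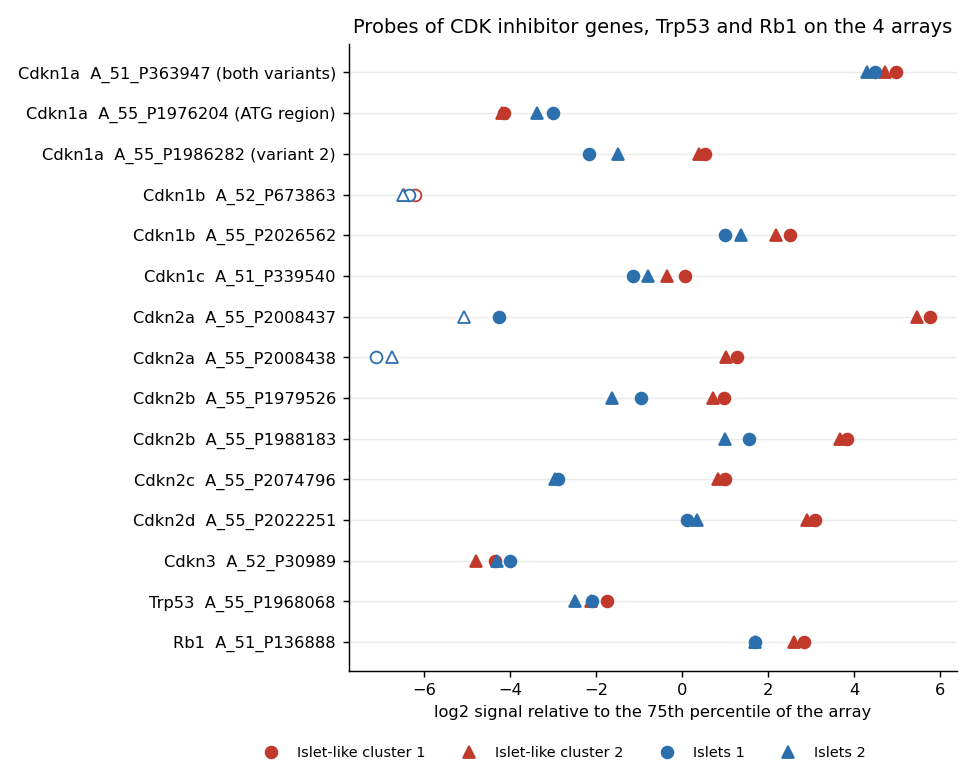
Log2 signal relative to the 75th percentile of the array (x axis) of the 15 probes of the 10 genes (rows) on the 4 arrays. Red marks are islet-like clusters, blue marks islets, circles array 1 and triangles array 2, and open marks are signals not well above background. The probes of Cdkn2a lie farthest apart between the groups, and of the tested probes that of Trp53 alone overlaps.

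The INK4 genes showed the largest differences of the members. On the brighter probe of Cdkn2a, A_55_P2008437 (mm9 chr4:88920405-88920464), the log2 level was 5.75 and 5.46 in the clusters, and -4.25 and -5.07 in the islets. Both clusters were far above both islet arrays, where the probe was above background on 1 of 2. The difference was 10.27 ± 0.30 on the log2 scale (SE of the fit, n = 2 arrays per group, adjusted p = 1.31e-08 by limma). Its size rests in part on an islet signal not well above background, and with normexp background correction, which lifts dim signals, it was 7.62.

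A second Cdkn2a probe, A_55_P2008438 (chr4:88920543-88920602), read 1.28 and 1.02 in the clusters, and was not well above background on either islet array. Its rise was at least 91.6-fold in the main setting (adjusted p = 2.46e-07 over the probes tested, limma). The measured difference of 8.06 fell to 3.55 with normexp, and the direction held in all 14 alternatives that kept the probe. Both probes thus showed Cdkn2a RNA high in the clusters and at or near background in the islets.

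Cdkn2b encodes p15Ink4b, the INK4 protein that TGF-beta is known to induce. Its brighter probe, A_55_P1988183 (chr4:88952276-88952335), read 3.83 and 3.67 in the clusters, and 1.55 and 0.99 in the islets. The groups were well apart, with a difference of 2.48 ± 0.26 (5.57-fold, adjusted p = 4.16e-05 by limma). The other probe, A_55_P1979526 (chr4:88952720-88952779), gave 2.13 ± 0.29 (4.38-fold). The change of this probe relative to the brighter one, -0.35, did not pass the test described below for Cdkn1a (adjusted p = 0.127, limma). Of 15 alternatives it passed in 1, normexp (-0.65, adjusted p = 0.0291 by limma).

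Cdkn2c, the gene of p18Ink4c, rose 14.3-fold. Its log2 level was 0.99 and 0.84 in the clusters, and -2.89 and -2.95 in the islets (probe at chr4:109333508-109333567). The arrays of a group lay within 0.15 of each other, and the difference was 3.84 ± 0.23 (adjusted p = 7.48e-07, limma), or 2.64 with normexp.

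For Cdkn2d, which encodes p19Ink4d, the levels were 3.08 and 2.90 in the clusters, and 0.11 and 0.34 in the islets (chr9:21092934-21092993). Here too the groups were clearly separate, by 2.76 ± 0.24 (6.78-fold, adjusted p = 8.91e-06 by limma). Each of the 4 INK4 genes was called higher under every alternative in which it could be tested, including each removal of an array. Larger changes than theirs were seen in 7.6% of genes for Cdkn2c, 13.0% for Cdkn2d and 15.1% for Cdkn2b.

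**Figure D2:**
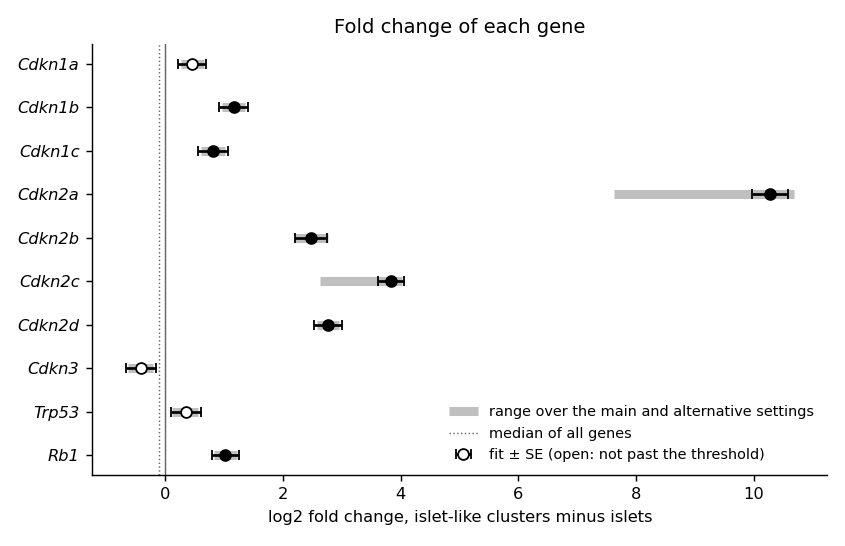
Log2 fold change, islet-like clusters minus islets (x axis), of the 10 genes (rows). Points are the fit with its SE, open where the adjusted p was not under 0.05, grey bars span the main and alternative settings, and the dotted line is the median of all genes (-0.10). Cdkn2a stands at 10.27 with the longest bar, while Cdkn1a, Cdkn3 and Trp53 are open.

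The CIP/KIP genes differed less. Cdkn1b, the gene of p27Kip1, read 2.50 and 2.19 in the clusters, and 1.01 and 1.36 in the islets on A_55_P2026562 (mm9 chr6:134875424-134875483). Clusters were above islets by 1.16 ± 0.25 (2.24-fold, adjusted p = 0.00359 by limma), and 35.9% of genes changed more. The call was lost without cluster 1 (1.00, adjusted p = 0.0514) and without islets 1 (0.99, adjusted p = 0.159). Its other probe, A_52_P673863, was not well above background on any array and was not tested.

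Cdkn1c encodes p57Kip2 and is expressed from the maternal copy in mice. Its levels were 0.06 and -0.34 in the clusters, and -1.13 and -0.78 in the islets (chr7:150644753-150644812). The gap between the lower cluster and the higher islet array was about as wide as the spread within the clusters. The difference of 0.81 ± 0.26 (1.76-fold, adjusted p = 0.0237 by limma) was not past the threshold in 6 of 16 alternatives, among them the removal of cluster 1, islets 1 or islets 2 (adjusted p = 0.147, 0.401 and 0.170).

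Cdkn1a, the gene of p21Cip1 and the best known target of p53, gave different answers on its 3 probes. The brightest, A_51_P363947 (chr17:29237377-29237436, printed in 10 spots per array), read 4.98 and 4.72 in the clusters, and 4.47 and 4.30 in the islets. The groups did not overlap, but the gap between them was about as large as that between the clusters. At 0.46 ± 0.24 (95% interval -0.08 to 0.99, adjusted p = 0.129 by limma) the gene was not called. It was called with the array median as the scale (0.65, adjusted p = 0.0326) and with a variance trend and robust fitting (0.46, adjusted p = 0.0233).

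The variant 2 probe of Cdkn1a, A_55_P1986282, read 0.52 and 0.40 in the clusters, and -2.17 and -1.50 in the islets. Signal from this variant was thus clearly higher in both clusters, by 2.30 ± 0.28 (4.91-fold, adjusted p = 0.000275 by limma over the probes tested), and the call held in all 15 alternatives. On A_55_P1976204 the order was turned, with -4.15 and -4.19 in the clusters, and -2.99 and -3.38 in the islets. This dim probe, well above background on all 4 arrays with processed signals of 18.6 to 40.8, was lower in the clusters by 0.98 ± 0.24 on the log2 scale (1.97-fold, adjusted p = 0.0106, limma). That call was lost with normexp (-0.41, adjusted p = 0.140) and without any single array (adjusted p = 0.0602 without cluster 1, 0.0653 without cluster 2, 0.311 without islets 1 and 0.107 without islets 2).

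Whether probes of a gene differ was tested on their difference within each array, with limma over all 10377 such pairs, a test added after the values had been seen. Of these pairs 36.8% passed, so unequal probes were common. The variant 2 probe rose by 1.84 ± 0.34 more than the brightest Cdkn1a probe (adjusted p = 0.0285, limma), and this call was lost without cluster 1 (adjusted p = 0.0636) and without cluster 2 (0.0668). A_55_P1976204 changed by -1.44 ± 0.17 relative to the brightest probe (adjusted p = 0.0114, limma), past the threshold in all 15 alternatives. The Cdkn2a probes differed by -2.21 ± 0.47 (adjusted p = 0.0371, limma, not past the threshold in 4 of 14 alternatives), which rests on islet signals not well above background.

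**Figure D3:**
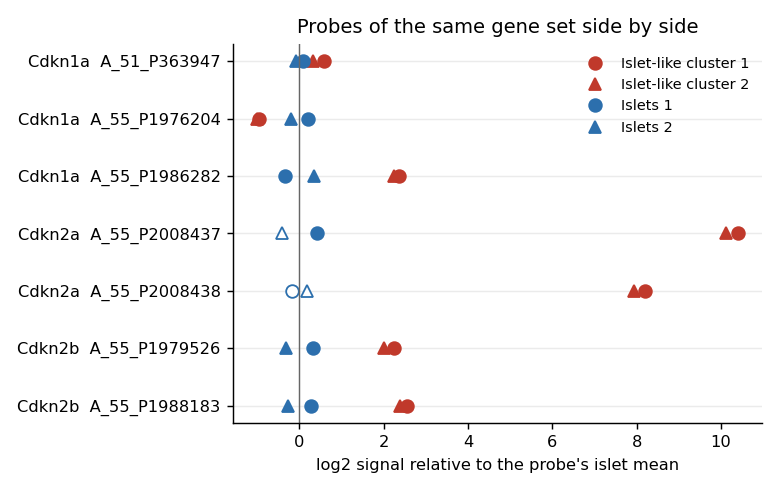
Log2 signal of each probe relative to its own mean over the islet arrays (x axis), for the 3 genes with several tested probes (rows). Red marks are islet-like clusters, blue marks islets, circles array 1 and triangles array 2, and open marks are signals not well above background. The Cdkn1a probes spread from below 0 to above 2 in the clusters, while those of Cdkn2b lie close together.

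Cdkn3 encodes a phosphatase that removes the activating phosphate of CDKs and is commonly higher in dividing cells. It was dim, with -4.35 and -4.78 in the clusters, and -4.00 and -4.29 in the islets (mm9 chr14:47386895-47386954). Cluster 1 and islets 2 were nearly level, and the difference of -0.42 ± 0.26 (interval -0.99 to 0.16, adjusted p = 0.195 by limma) was not called. With the percentile taken over the probes detected on all arrays it was called lower (-0.61, adjusted p = 0.0387).

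Trp53, the gene of p53, read -1.75 and -2.11 in the clusters, and -2.10 and -2.48 in the islets (chr11:69404204-69404263, 2 spots per array). Cluster 2 and islets 1 were level. The difference was 0.36 ± 0.26 (interval -0.22 to 0.94, adjusted p = 0.262 by limma) and passed the threshold in none of 16 alternatives. The interval leaves room for a rise of nearly 2-fold, and mRNA says nothing of the p53 protein, which is known to be controlled mainly through its stability.

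Rb1 rose 2.03-fold. Its 10 spots per array gave means of 2.83 and 2.59 in the clusters, and 1.69 and 1.70 in the islets (chr14:73595408-73595467), so the islets were level and both clusters higher. The difference was 1.02 ± 0.23 (adjusted p = 0.00475, limma), and 40.4% of genes changed more. Without islets 1 or islets 2 the value stayed at 1.01 and 1.03, but the adjusted p rose to 0.145 and 0.149.

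Repeated spots show how much of this spread arises within an array. The SD over the Rb1 spots of an array was 0.032 to 0.101, and over the Cdkn1a spots 0.012 to 0.041. Both were smaller than the gap of 0.24 and 0.26 between the cluster arrays. Before scaling, however, the cluster signals were nearly level, at 2348 and 2342 for Rb1 and 10358 and 10198 for Cdkn1a. The 75th percentiles of these arrays were 329 and 388, so the gaps came mostly with the scaling. Between the islet arrays the Rb1 gap was 0.015, below the spot SDs there (0.101 and 0.068). For Trp53 the SD over its 2 spots was 0.052 to 0.383, and on islets 2, where it was highest, it was as large as the difference between the groups.

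**Figure D4:**
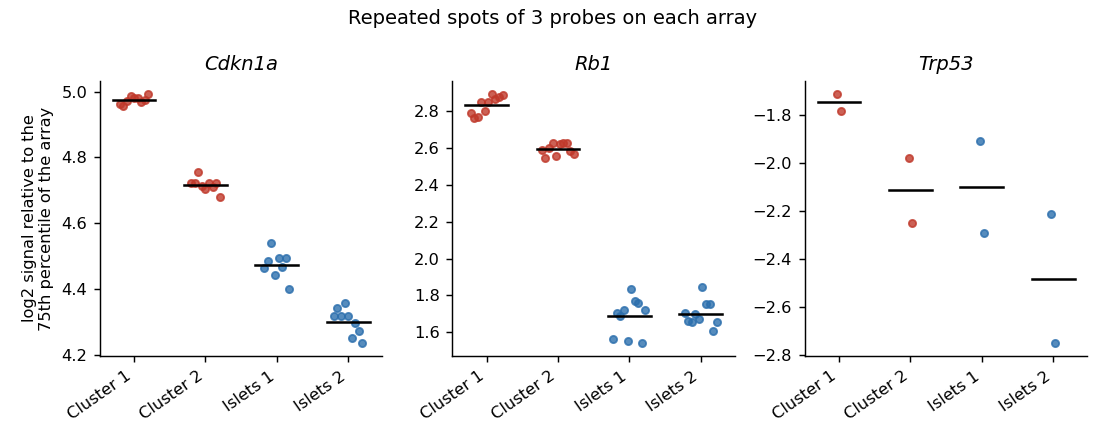
Log2 signal relative to the 75th percentile of the array (y axis, a separate range per panel that does not start at 0) of the repeated spots of the Cdkn1a probe A_51_P363947, the Rb1 probe and the Trp53 probe on each array (x axis). Points are spots, red for islet-like clusters and blue for islets, and lines are array means. Spots of Cdkn1a and Rb1 lie tightly around their array means, which for Rb1 are level between the islet arrays, whereas spots of Trp53 spread widely.

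Genes that control p53 moved in both directions. This list and the ones that follow are to be read against the 26.6% of all genes called higher and the 28.3% called lower. Of 15 tested (kinases, ubiquitin ligases, acetylases and relatives of p53), 3 rose and 5 fell, with a median log2 fold change of 0.09. Mdm2, the ubiquitin ligase and also a target of p53, read 7.24 and 7.11 in the clusters, and 5.54 and 5.49 in the islets, a rise of 1.66 ± 0.23 (3.15-fold, adjusted p = 0.000227 by limma). Mdm4, its partner that blocks p53, fell by 0.77 on the log2 scale (adjusted p = 0.0310, limma), a call lost in 9 of 16 alternatives. The other tested probe of Mdm4, at -0.18, was not called. The ligase Rfwd2 (2.15-fold) and the acetylase Ep300 (2.02-fold, a call lost in 7 of 16 alternatives) rose. The p53 relative Trp73 fell by 4.01, the kinase Atr by 0.93, and the kinase Chek2, not well above background in the clusters, was at least 1.80-fold lower in the main setting. Its call was lost in 8 of 15 alternatives, among them normexp, where the log2 difference was -0.34 (adjusted p = 0.234, limma). Over the alternatives 1 to 7 genes of this list were called higher and 1 to 5 lower.

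Among 24 tested targets of p53 other than Cdkn1a, 9 rose and 5 fell, with a median of 0.49. The death receptors Fas (2.75) and Tnfrsf10b (1.77), the AKT repressor Phlda3 (1.87), the kinase Plk3 (1.83), Mdm2 and the cyclin G gene Ccng1 (1.08, adjusted p = 0.00293 by limma) rose on the log2 scale. The largest fall was that of Perp, a desmosome protein of epithelia, which read -1.19 and -1.42 in the clusters, and 5.51 and 5.79 in the islets. Sfn, the epithelial 14-3-3 sigma, fell by 3.70, the antiproliferative Btg2 by 2.88 and the DNA repair gene Xpc by 1.58. Counts ranged from 5 to 13 higher and from 4 to 8 lower over the alternatives.

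Of the relatives of Rb1 and the E2F factors, 7 of 12 were higher and 0 lower, with a median of 0.83. At an unadjusted p under 0.05 1 gene of the list was lower. E2f1, an activator of replication genes, read 1.85 and 1.51 in the clusters, and -1.16 and -1.80 in the islets, a rise of 3.16 ± 0.28 (8.94-fold, adjusted p = 1.25e-05 by limma). E2f6, a repressor (1.53), and Rbl2, the RB relative p130 (1.23), rose as well. E2f3 was 1.95 higher on its brightest probe and 0.73 lower on its other probe, both past the threshold. Rbl1, the gene of p107, differed by -0.64 (adjusted p = 0.0905, limma). Over the alternatives 3 to 7 genes of the list were called higher and 0 to 2 lower. Whenever an array was left out fewer were called higher than in the main setting, as was true over all genes. The median of the list then ranged from 0.59 to 1.05.

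The kinases and cyclins on which the inhibitors act were mixed, with 6 of 16 tested higher, 4 lower and a median of 0.25. All 3 D cyclins, the partners of the kinases that INK4 proteins block, rose: Ccnd2 by 2.69 (6.25 and 6.04 in the clusters, 3.95 and 2.96 in the islets), Ccnd3 by 1.24 and Ccnd1 by 0.66 (adjusted p = 0.0421 by limma, lost in 6 of 16 alternatives). Cdk4 read 5.63 and 5.38 in the clusters, and 5.54 and 5.50 in the islets, a difference of -0.02 ± 0.23 whose sign turned under 5 alternatives. Cdk6 was not well above background in the clusters and at least 3.18-fold lower there in the main setting, with a log2 difference of -0.54 under normexp. Ccnh, a subunit of the CDK-activating kinase (2.63), and the CDK phosphatase gene Cdc25b (2.11) rose, whereas the phosphatase gene Cdc25a (-0.95) and Mnat1, another subunit of the CDK-activating kinase (-0.93), fell. The mitotic cyclin Ccnb1 was well above background on 1 of 2 cluster arrays and read -1.33 and -3.01 in the islets. Its fall of 2.50 was 0.94 under normexp, and the call was lost in 2 of 15 alternatives. Ccne2, Ccna1 and Cdc25c were too dim to be tested. Over the alternatives 3 to 7 genes were called higher and 1 to 6 lower.

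Of 16 tested replication and mitosis genes, many of them E2F targets, 10 fell and 0 rose, with a median of -0.99. The count of lower genes was 4 with array median scaling, 5 without a filter on dim probes and 4 to 8 without single arrays, and 4 to 12 over all alternatives. At an unadjusted p under 0.05 too, 0 of them were higher. The replication helicase genes Mcm3 (-4.48), Mcm5 (-3.93) and Mcm6 (-2.98) and the ribonucleotide reductase gene Rrm2 (-2.79) fell under every alternative. Mki67, the proliferation marker Ki-67, read -3.61 and -2.77 in the clusters, and -0.16 and -2.09 in the islets. The islet arrays differed from each other by almost as much as the groups, and its fall of 2.07 (adjusted p = 0.0102, limma) was lost in 10 of 16 alternatives. The other tested probe of Mki67, at -4.49, was also called lower. Pcna had no value on an array once spots marked as uneven were left out, and Bub1 and Aurkb were too dim.

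Regulators of the Ink4a/Arf locus gave 8 higher and 5 lower of 20 tested, with a median of 0.49. Hmga2, a chromatin protein known to hold down p16Ink4a and p19Arf in young neural stem cells, read 4.01 and 4.57 in the clusters, and -1.45 and -2.50 in the islets, a rise of 6.27 ± 0.36 (77.0-fold, adjusted p = 5.89e-07 by limma). The T-box repressors Tbx3 (5.45) and Tbx2 (at least 4.50-fold in the main setting) and the Polycomb genes Cbx8 (1.69) and Bmi1 (1.15, adjusted p = 0.00210 by limma) also rose. Tbx2 was not well above background in the islets, and under normexp its log2 difference was 0.36 and not past the threshold (adjusted p = 0.215, limma). Ezh2, the Polycomb methyltransferase whose decline with age accompanies p16Ink4a in beta cells, fell by 1.91 (adjusted p = 0.000124, limma). Cbx7, another Polycomb gene (-0.87, a call lost in 6 of 16 alternatives), and the ETS factors Ets1 (-1.74) and Ets2 (-1.23), known in human fibroblasts to activate p16Ink4a, fell as well. Repressors of the locus thus stood on both sides, and 4 to 10 genes were called higher and 2 to 6 lower over the alternatives.

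Of 11 tested genes known to control p27Kip1 and p18Ink4c, 2 rose and 2 fell, with a median of 0.25. Skp2, the ubiquitin ligase subunit that marks p27Kip1 for destruction, rose by 1.62 (adjusted p = 0.000295, limma). Men1 and Mll1 belong to a histone methyltransferase complex that is known to keep Cdkn1b and Cdkn2c active in islets. In the limma fit Men1 differed by 0.55 (adjusted p = 0.0709) and Mll1 rose by 0.79 (adjusted p = 0.0201, lost in 8 of 16 alternatives). The subunit Ash2l fell by 1.32 and the transcription factor Foxo3 by 0.90, each on its brightest probe. Their other tested probes, at -0.13 for Ash2l and -0.59 for Foxo3, were not called. The calls ranged from 1 to 5 higher and from 0 to 4 lower.

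Neighbours of Cdkn1c and of the Cdkn2a and Cdkn2b locus, taken as 1 list, were split as well. Of 9 tested 5 were higher and 3 lower, with a median of 1.05. The 3 lower genes are neighbours of Cdkn1c, and the only tested neighbour of Cdkn2a and Cdkn2b was higher. Kcnq1, the potassium channel gene next to Cdkn1c, read 3.08 and 2.99 in the islets, was not well above background in the clusters and was at least 305-fold lower there in the main setting, with a log2 difference of -5.43 under normexp. The transporter gene Slc22a18 fell by 7.99 and Phlda2 by 3.08. Phlda2 was well above background on 1 of 2 cluster arrays, and its fall was 1.13 under normexp. Ascl2 (2.72), Cd81 (1.43), Tssc4 (1.37) and Nap1l4 (1.12) rose, though the other tested probe of Nap1l4, at 0.47, was not called. Over the alternatives 3 to 6 neighbours were called higher and 1 to 3 lower.

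**Figure D5:**
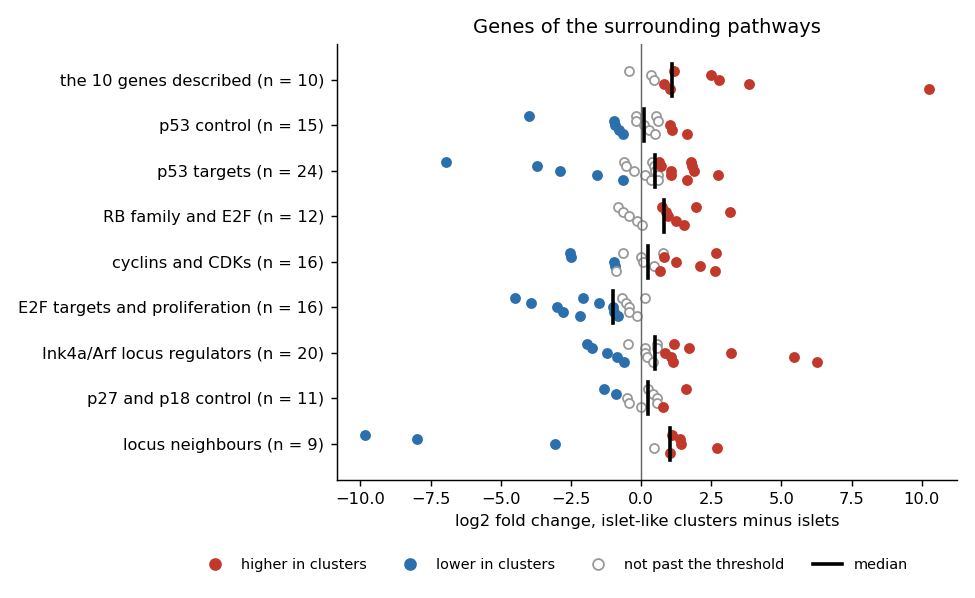
Log2 fold change, islet-like clusters minus islets (x axis), of the tested genes of the 10 members and of 8 lists of related genes (rows, n in brackets). Red points were called higher, blue points lower and open points not called, and black bars are medians, which run from -0.99 for E2F targets and proliferation to 1.09 for the members.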

How the data were processed

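RNA of the 4 samples was copied from an oligo-dT primer, labelled with Cy3 and hybridised, per the labels' protocols. Spot intensity, on a linear scale, was read from the deposited scanner files, made with Agilent Feature Extraction 11.5.1.1 per the file headers, which also give background subtraction, detrending by multiplication and mm9 probe positions. The software's flags were used as deposited. All arrays lie on 1 slide and came from 1 scan, so no slide block was possible.

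Each processed signal was taken to log2 and scaled by subtracting its array's 75th percentile, computed over non-control probes. Left out were controls and any spot with a non-uniformity or population outlier flag (5 spots of the members, all of Cdkn1a). Spots of a probe were averaged, and 490 probes without a value on an array were dropped. A probe counted as well above background where at least 50% of its spots did, and was tested where this held on both arrays of a group (34973 probes). Each gene name was represented by its brightest probe (24596 genes). The clusters were set against the islets in limma 3.58.1 under R 4.3.3 (2-sided, 2 residual and 9.05 total degrees of freedom), with Benjamini-Hochberg adjustment and a threshold of 0.05. The procedure was tested on simulated data. A gene not well above background on both arrays of a group has only a bound there, set from the higher of that array's lowest well-detected signal and its own. The number of arrays limits the precision.

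The authors' value table holds log2 values without centring per gene, since each column correlated at r = 0.9999 or higher with its array. Its deposited column medians were -3.61, -3.70, -3.50 and -3.37. It served as an alternative, next to other background corrections, scalings, filters, probe rules, variance models, the replicate block and leaving out each array.

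The members and the gene lists were chosen with earlier results of these data known. Of each list the text names up to 4 called genes per direction with the largest change, and 15 pathway genes regardless of their change.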

Additional observations from a re-analysis of the deposited data

How the results depend on the processing

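Across 16 alternatives no member changed direction, and the 4 INK4 genes were called higher wherever they could be tested. Leaving out 1 array at a time gave 7655 to 10127 genes called (13516 in all), 3911 to 5406 higher, 3744 to 5445 lower, and 4 to 7 members higher. The log2 fold change then ranged from 0.99 to 1.34 for Cdkn1b, from 0.61 to 1.01 for Cdkn1c, from 0.90 to 1.14 for Rb1 and from -1.17 to -0.79 for the Cdkn1a probe A_55_P1976204. The Cdkn1b probe A_55_P2026562, adjusted over probes, ranged over the same 0.99 to 1.34. Cdkn1c kept its direction but missed the threshold with the percentile over detected probes (0.62, adjusted p = 0.0588), without a filter on dim probes (0.81, adjusted p = 0.0786) and with the replicate block (0.81, adjusted p = 0.0829). Cdkn1a passed with median scaling (0.65 as a gene and as probe A_51_P363947) and with a variance trend and robust fitting (0.46 for both). Cdkn3 passed with the percentile over detected probes (-0.61), so that 1 member was lower there. The Cdkn1a probe A_55_P1976204 was -0.41 with normexp and no longer passed. The cause of these changes was not tested. Cdk4, at -0.02, turned to 0.026 with normexp, 0.18 with median scaling, 0.017 with quantile normalization, 0.11 without cluster 2 and 0.0013 without islets 1, and ranged from -0.14 to 0.11 without single arrays. The median over all genes moved by 0.20 with median scaling, by -0.19 with the percentile over detected probes and by 0.12 without cluster 2, and the share of higher among called genes from 48.5% to 58.1%, 40.3% and 53.4%. Same-numbered arrays of the groups share only a number (r = -0.023 between their deviations over 2 pairs), and the replicate block lost no member call other than that of Cdkn1c. The 57 context genes named with values gave 906 comparisons, of which 810 kept their call, 84 lost it, 7 gained it and 5 changed sign (all Cdk4). The per-probe alternatives and the probe differences were chosen after seeing the data.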
